A study of Mus musculus with 6 samples.

Results

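The Hedgehog pathway was followed through 9 genes, Ptch1, Smo, Gli1, Gli2, Gli3, Hhip, Sufu, Boc and Gas1, taken by their symbols from a table of 54532 mouse genes. RNA was sequenced from TM3, an established mouse Leydig cell line of testis origin, in 6 libraries. Of these, 3 were control libraries of TM3 cells (genotype label WT, title O/E control) and 3 came from TM3 cells with the genotype A20 overexpression. A20 is encoded by Tnfaip3 and dampens NF-kB signals by adding and removing ubiquitin. The labels do not say by what construct A20 was overexpressed, whether a line was clonal, or whether separate cultures were sequenced, so p-values measure the spread between these libraries, which may be technical.

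Hedgehog ligands bind the receptor PTCH1, which otherwise keeps the membrane protein SMO inactive. Released SMO acts in the primary cilium to free GLI transcription factors from their inhibitor SUFU, and GLI1, PTCH1 and HHIP are themselves induced as feedback targets. BOC, GAS1 and CDON are co-receptors that present ligand to PTCH1. In the testis, Desert hedgehog from Sertoli cells signals to the interstitium and is needed for Leydig cell differentiation.

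Total counts ran from 13841287 to 16917979 per library, and a gene without a count could lie at up to 0.177 to 0.217 CPM (counts-per-million of the library total), the level of 3 counts, which covers counting error only. Tnfaip3 was at 30.9, 11.9 and 15.2 CPM in control replicates 1, 2 and 3 and at 41.0, 33.7 and 43.6 CPM in A20-overexpressing replicates 1, 2 and 3, each above each control. The overexpressed gene did not pass edgeR with all 6 libraries (log2 fold change 1.08 ± 0.30 SE, adjusted p = 0.331) and passed without control replicate 1 (1.51 ± 0.19 SE, adjusted p = 0.000256). Control replicate 1 stood apart by its Leydig cell markers, of which 9 of 11 were above and 1 below each other library. Of the 4 tested with 6 libraries 3 were above and 1 below, where all genes tested gave 40.7% and 21.7%. The 11 markers summed to 2315 CPM in control replicate 1 against 193 to 238 CPM elsewhere. Star was at 497 CPM in that library and at 2.52 to 4.54 CPM elsewhere. Nr5a1 was at 125 CPM against 0.0697 to 0.596 CPM, Cyp11a1 at 851 CPM against 0 to 0.144 CPM, and Hsd3b1 at 532 CPM with no count elsewhere. The steroidogenic markers Star, Nr5a1, Cyp11a1 and Hsd3b1 were thus low or without counts in 5 of the 6 libraries. Other markers of the list made up most of the sum in those 5. The fold changes are given with all 6 libraries and without control replicate 1.

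Of the 9 genes, 8 had counts in every library, and the ligand trap gene Hhip had none. Levels of different genes are set beside each other per length, as the deposited fragment counts scaled by gene length and library size (FPKM), averaged over the 6 libraries. Smo, the signal transducer, was at 21.5 FPKM ± 5.38 (SD, n = 6). The co-receptor genes Gas1 and Boc followed at 14.6 FPKM ± 3.57 (SD, n = 6) and 13.5 FPKM ± 4.74 (SD, n = 6). Smo lay above Gas1 in 5 of 6 libraries, and Gas1 above Boc in 3 of 6, so the order of Gas1 and Boc was not separated from their spread. Boc was above the next gene, Gli3, in each of the 6 libraries. Gli3 was at 4.50 FPKM ± 0.835 (SD, n = 6) and Sufu at 3.92 FPKM ± 0.522 (SD, n = 6), with Gli3 higher in 4 of 6 libraries. Ptch1 was at 2.33 FPKM ± 0.973 (SD, n = 6) and Gli2 at 2.08 FPKM ± 0.497 (SD, n = 6), and Ptch1 was the higher in 3 of 6. Gli1 varied most relative to its mean, from 0.215 to 4.15 FPKM. Its mean of 0.987 FPKM ± 1.55 (SD, n = 6) rests on control replicate 1.

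**Figure D1:**
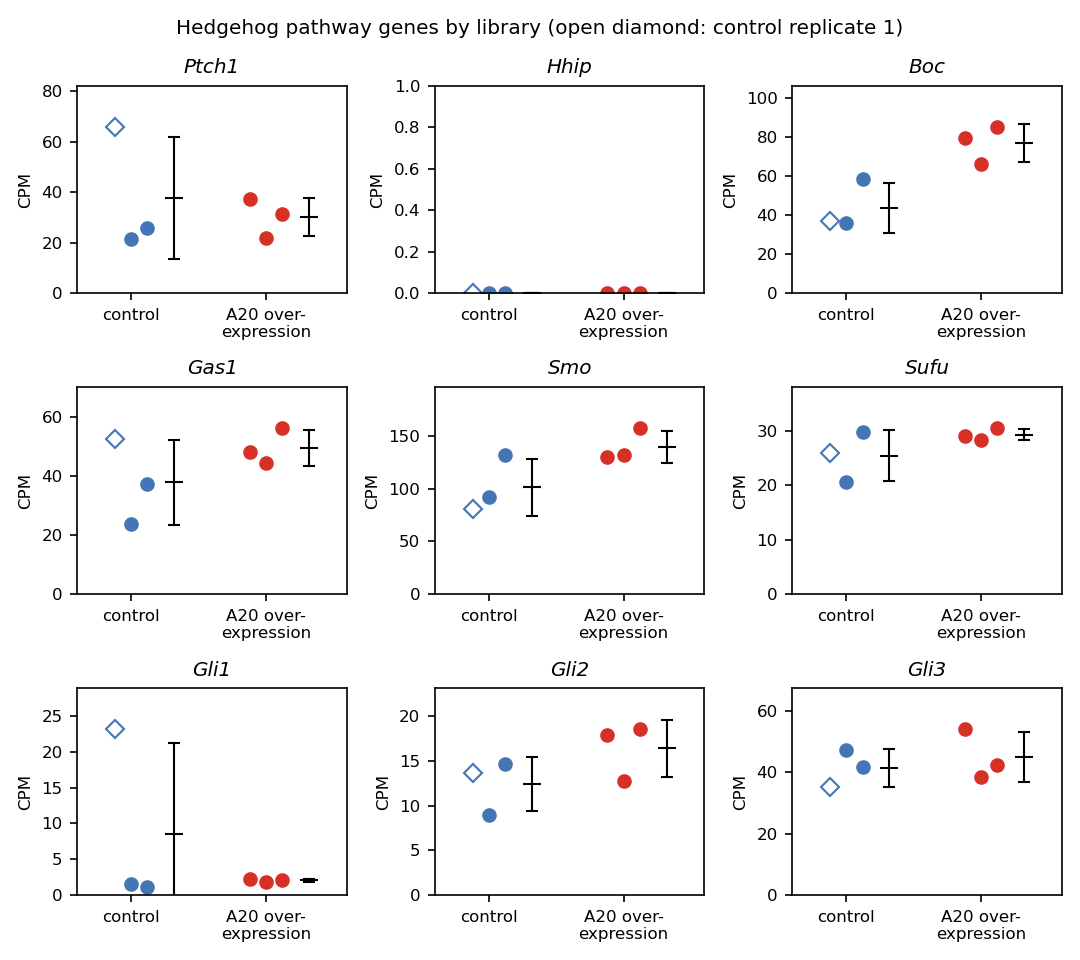
Each panel plots CPM (vertical axis, from 0) of a Hedgehog gene in the 3 control (blue) and 3 A20-overexpressing (red) libraries, with the group mean and SD as black bars (the lower end for Gli1 in control is cut at 0). Control replicate 1, the open diamond, is far above the other libraries for Gli1 and Ptch1, and the groups of Boc do not overlap.

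With A20 overexpression the co-receptor gene Boc was higher than in each control library, and in the comparison without control replicate 1 Boc and Gas1 rose while 6 of the 8 genes tested did not pass. In that comparison edgeR's quasi-likelihood test called 4.6% of 13658 genes in either direction, 1.92% as higher and 2.68% as lower, at an adjusted p under 0.05. With all 6 libraries edgeR called 0 of the 8 genes, where it called 0.015% of 13350 genes, 0.00749% in each direction, and 1 of the 8, Boc, had an unadjusted p under 0.05, as had 10% of all genes tested. In the 6-library comparison limma-voom also called 0 of the 8, and 0 of all 13350 genes. DESeq2 called 0 of the 8 as well, gave Gli1 no p and called 1.03% of all genes with an adjusted p. limma-voom with quality weights per library called 1 of the 8, Boc, and 3.09% of all genes. The fold change was above 1 for 6 of the 8 genes with 6 libraries, as for 46% of all genes tested, and for 7 of the 8 with 5 libraries, as for 49.7%. The median log2 fold change of the 8 genes was 0.34 with all 6 libraries and 0.38 without control replicate 1, and that of all genes tested was -0.03 and -0.0028.

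Boc encodes a cell surface protein of the immunoglobulin superfamily that binds Hedgehog ligand (ENSMUSG00000022687, GRCm38 chromosome 16, 44485049 to 44558897, minus strand). It was at 36.9, 35.6 and 58.4 CPM in control replicates 1, 2 and 3 and at 79.4, 66.0 and 84.7 CPM in A20-overexpressing replicates 1, 2 and 3. Each A20-overexpressing library was above each control, with control replicate 3 the nearest. Groups lay apart in this direction for 1 of the 8 Hedgehog genes and 7.62% of all genes tested with 6 libraries, and for 3 of the 8 (Boc, Gas1 and Gli1) and 20.7% with 5. In the other direction they did so for none of the 8, and for 9.27% and 17.2% of all genes. The means were 43.6 CPM ± 12.8 (SD, n = 3) in control and 76.7 CPM ± 9.66 (SD, n = 3) with A20 overexpression. The log2 fold change was 0.84 ± 0.22 (SE) with all 6 libraries, which did not pass edgeR (unadjusted p = 0.00515, adjusted p = 0.321). Without control replicate 1 it was 0.68 ± 0.18 (SE), a fitted 1.6-fold rise that passed edgeR (adjusted p = 0.0398).

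Gas1, a membrane-anchored co-receptor gene first known for its induction on growth arrest (ENSMUSG00000052957, chromosome 13, 60174405 to 60177365, minus strand), was at 52.5, 23.9 and 37.3 CPM in control replicates 1, 2 and 3. In A20-overexpressing replicates 1, 2 and 3 it was at 48.1, 44.5 and 56.2 CPM. Control replicate 1 lay among the A20-overexpressing libraries, and control replicates 2 and 3 below them. With all 6 libraries the log2 fold change of Gas1 was 0.44 ± 0.23 (SE, edgeR adjusted p = 0.56). Without control replicate 1 the means were 30.6 CPM ± 9.46 (SD, n = 2) in control and 49.6 CPM ± 6.0 (SD, n = 3) with A20 overexpression. Gas1 rose in that comparison by a fitted log2 fold change of 0.67 ± 0.18 (SE, edgeR adjusted p = 0.0434), which is 1.59-fold after TMM scaling.

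Both calls in the 5-library comparison depended on the libraries and settings used. Leaving out control replicate 2 or 3 as well leaves a single control library, so effect sizes alone are given for these fits. Without control replicate 2 the log2 fold change of Boc was 0.40 and that of Gas1 0.42. Without control replicate 3 they were 1.03 and 0.97. Without A20-overexpressing replicate 1, 2 or 3, Boc was at 0.66, 0.77 and 0.61 with edgeR adjusted p of 0.142, 0.0873 and 0.176. Gas1 was then at 0.70, 0.73 and 0.58 with adjusted p of 0.125, 0.103 and 0.217. The direction was kept in each of these fits, and neither gene was called where an A20-overexpressing library was left out. Without A20-overexpressing replicate 1, 2 or 3 edgeR called 142 of 13422, 191 of 13434 and 160 of 13388 genes. With all 5 libraries it called 628 of 13658. With all 5 libraries kept, both genes passed with RLE factors (edgeR adjusted p = 0.036 for Boc and 0.0397 for Gas1). Both passed with DESeq2 (adjusted p = 0.0172 and 0.0239) and without a filter on low counts (edgeR adjusted p = 0.00121 and 0.00409). With replicate number as a block both passed too (edgeR adjusted p = 0.0189 and 0.0225). Of all genes these settings called 651, 794, 1173 and 797, in that order. On the library size alone neither passed, with 0.71 for Boc (adjusted p = 0.0554) and 0.70 for Gas1 (adjusted p = 0.0591). Gas1 was also not called by limma-voom (adjusted p = 0.0524) or by limma-voom with quality weights (adjusted p = 0.065). Nor was it called by edgeR with a filter of 1 CPM in at least 3 libraries (adjusted p = 0.0509). Boc passed in these settings, at adjusted p of 0.0462, 0.0443 and 0.0469 in that order. Neither gene was called on FPKM values by limma-trend (adjusted p of 0.155 to 0.270). On log2(FPKM + 1) and on log2(FPKM + 0.1) limma-trend called 0 of 23674 genes. At a mean FPKM of at least 1 it called 35 of 11693.

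**Figure D2:**
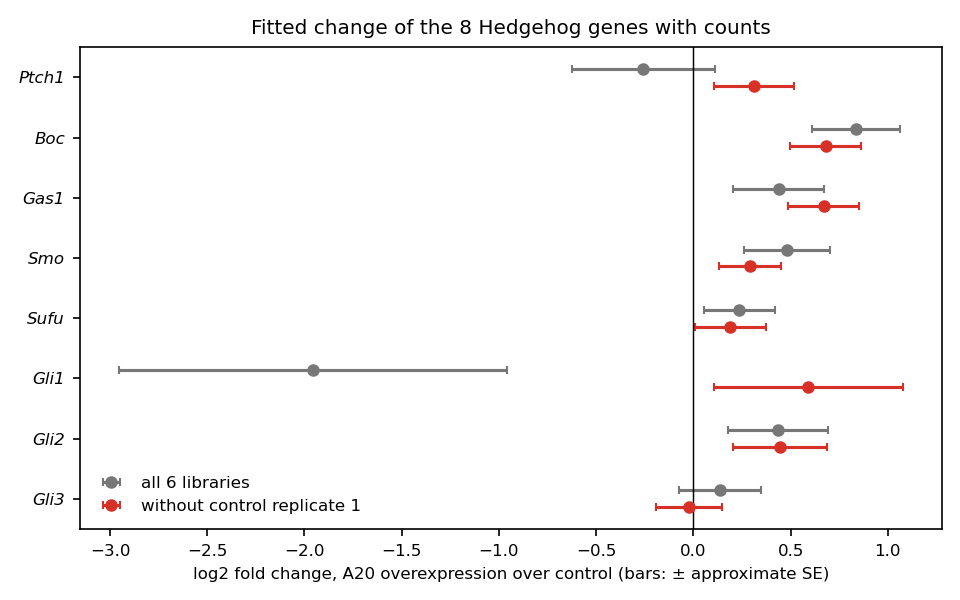
The horizontal axis is the fitted log2 fold change of A20 overexpression over control for the 8 Hedgehog genes tested, with bars of ± 1 approximate SE, in grey with all 6 libraries and in red without control replicate 1. Boc is at 0.84 and 0.68, whereas Gli1 lies at -1.96 in the first fit and at 0.59 in the second.

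Smo, the membrane protein that passes the signal to the GLI proteins (ENSMUSG00000001761, chromosome 6, 29735503 to 29761365, plus strand), was at 80.4, 92.1 and 132 CPM in control replicates 1, 2 and 3. It was at 130, 132 and 157 CPM in A20-overexpressing replicates 1, 2 and 3. Control replicate 3 was as high as the lower A20-overexpressing libraries, so the groups overlapped. The log2 fold change was 0.48 ± 0.22 (SE, edgeR adjusted p = 0.517) with 6 libraries and 0.29 ± 0.16 (SE, adjusted p = 0.295) with 5. Where control replicate 3 was left out of the 5, with control replicate 2 as the only control, the log2 fold change of Smo was 0.52.

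Sufu, the inhibitor that holds GLI proteins in the cytoplasm (ENSMUSG00000025231, chromosome 19, 46396896 to 46488804, plus strand), was at 25.9, 20.6 and 29.8 CPM in the control libraries. The A20-overexpressing libraries were at 29.1, 28.4 and 30.5 CPM, within a narrow range that control replicate 3 shared. Its log2 fold change was 0.24 ± 0.18 (SE, edgeR adjusted p = 0.69) with 6 libraries and 0.19 ± 0.18 (SE, adjusted p = 0.584) with 5.

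Gli2, the main activator at the start of signalling (ENSMUSG00000048402, chromosome 1, 118834132 to 119053619, minus strand), was at 13.6, 8.99 and 14.7 CPM in the control libraries and at 18, 12.8 and 18.5 CPM in the A20-overexpressing ones. The groups overlapped through A20-overexpressing replicate 2. The log2 fold change was 0.44 ± 0.26 (SE, edgeR adjusted p = 0.605) with 6 libraries and 0.45 ± 0.24 (SE, adjusted p = 0.297) with 5. For Gli2 it was 0.79 where control replicate 3 was left out of the 5, with control replicate 2 as the only control. Gli3, which acts mainly as the repressor of the pathway (ENSMUSG00000021318, chromosome 13, 15463235 to 15730026, plus strand), was at 35.1, 47.3 and 41.6 CPM in control replicates 1, 2 and 3. In the A20-overexpressing libraries it was at 54.0, 38.6 and 42.4 CPM, from within the range of the controls to above it. Its log2 fold change was 0.13 ± 0.21 (SE, edgeR adjusted p = 0.865) with 6 libraries and -0.02 ± 0.17 (SE, adjusted p = 0.956) with 5.

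Of the genes that GLI proteins induce as feedback, Hhip had no count and was not tested. Gli1 and Ptch1 did not pass in either comparison, and both were highest in control replicate 1. Gli1 (ENSMUSG00000025407, chromosome 10, 127329882 to 127341974, minus strand) was at 23.1 CPM there, from 355 counts. In control replicates 2 and 3 it was at 1.53 and 1.08 CPM, from 22 and 15 counts, and in A20-overexpressing replicates 1, 2 and 3 at 2.19, 1.79 and 2.12 CPM, from 37, 28 and 32 counts. Control replicate 1 was 12.9-fold above the median of the other 5 libraries and 10.6-fold above the highest of them. Among all genes tested, 7.03% were more than 2-fold above the highest of the other libraries in control replicate 1, and of the 8 Hedgehog genes Gli1 alone was. None of the 8 was more than 2-fold below the lowest of them, as 2.25% of all genes were. The log2 fold change of Gli1 with A20 overexpression was -1.96 ± 1.00 (SE, edgeR adjusted p = 0.547) with 6 libraries and 0.59 ± 0.49 (SE, adjusted p = 0.515) with 5, where each A20-overexpressing library was above both controls. The span of Gli1 overlaps Arhgap9 on the opposite strand, which had 3 to 17 counts per library, and without a stated strand setting reads of the overlapping part cannot be told apart.

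Ptch1, the ligand receptor (ENSMUSG00000021466, chromosome 13, 63508328 to 63573598, minus strand), was at 65.7 CPM in control replicate 1 and at 21.6 and 25.9 CPM in control replicates 2 and 3. It was at 37.2, 22 and 31.2 CPM with A20 overexpression, values that straddled control replicate 3. Control replicate 1 was 2.54-fold above the median of the other 5 and 1.76-fold above the highest. The log2 fold change was -0.26 ± 0.37 (SE, edgeR adjusted p = 0.852) with 6 libraries and 0.31 ± 0.20 (SE, adjusted p = 0.401) with 5. Hhip, which encodes a surface protein that sequesters ligand (ENSMUSG00000064325, chromosome 8, 79965851 to 80058006, minus strand), had no count in any library, control replicate 1 included, where the 3-count level is 0.195 CPM.

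**Figure D3:**
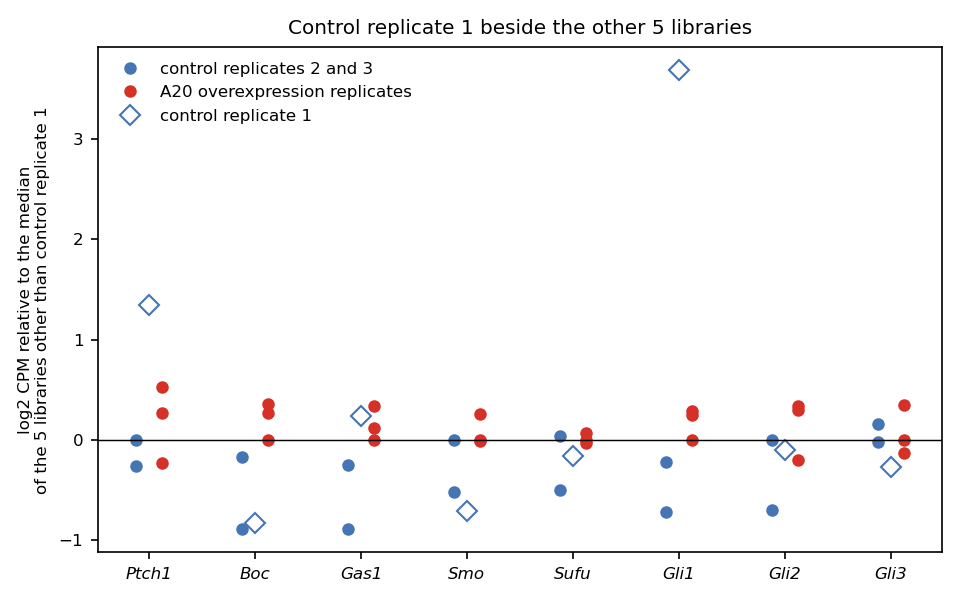
The vertical axis is log2 CPM relative to the median of the 5 libraries other than control replicate 1. The open diamond of control replicate 1 stands 3.69 above that median for Gli1 and 1.34 above it for Ptch1, while it is below each other library for Smo and Gli3.

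Control replicate 1 was above each other library for 2 of the 8 Hedgehog genes, Gli1 and Ptch1, and below each for 2, Smo and Gli3, where all genes tested gave 40.7% above and 21.7% below. Its log2 ratio to the median of the other 5 was -0.72 for Smo, -0.84 for Boc, -0.27 for Gli3, -0.17 for Sufu, -0.11 for Gli2 and 0.24 for Gas1. As a single library it has no replicate, and these ratios carry no test. Like Gli1 and Ptch1, 9 of the 11 Leydig cell markers were highest in this library, and 1 was lowest. The 6 Sertoli cell markers summed to 299 CPM in control replicate 1 against 132 to 183 CPM elsewhere, with Sox9 and Fshr at no count in any library, Clu above the others, at 221 CPM against 9.10 to 31.1 CPM, and Wt1 below them, at 77.5 CPM against 117 to 152 CPM. The 5 endothelial markers summed to 36.7 CPM against 3.31 to 5.11 CPM, of which Cdh5 made 35.1 CPM, while Egfl7 was below the others at 1.04 CPM against 3.05 to 4.47 CPM and Tek and Kdr had no count there. The 5 peritubular myoid markers summed to 88.7 CPM against 37.1 to 59.6 CPM, with Acta2 above the others at 77.6 CPM and Des below them at 6.58 CPM. The 5 macrophage markers had a lower sum, at 6.06 CPM against 22.7 to 42.9 CPM. Of these, 1 was above and 1 below each other library, and Adgre1 had no count in any library. The 5 germ cell markers were at 9.58 CPM against 6.06 to 12.2 CPM with no Dazl count, and the 7 progenitor and stromal markers at 276 CPM against 258 to 329 CPM with no Tcf21 count. The part of these cell types in the Gli1 and Ptch1 levels was not tested, and in RNA of whole cultures fewer cells of a type and less RNA per cell cannot be told apart.

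The other 2 control libraries differed from each other in several Hedgehog genes. Control replicate 2 was the lowest of the 5 libraries for 6 of the 8 Hedgehog genes, and A20-overexpressing replicate 3 the highest for 5. The matching shares over all genes were not computed. From control replicate 2 to control replicate 3 the level differed 1.64-fold for Boc, 1.63-fold for Gli2, 1.56-fold for Gas1, 1.45-fold for Sufu and 1.43-fold for Smo, higher in control replicate 3 each time. The median log2 ratio of control replicate 3 to control replicate 2 was 0.53 over the 8 genes and 0.11 over 12575 genes (mean CPM 1 or more, counted in both). Control replicate 3 was the higher for 6 of the 8 genes and for 60.4% of the 12575. For Boc this log2 ratio between controls was 0.71, beside a log2 fold change of 0.68 between the groups, and for Gas1 it was 0.64 beside 0.67. Among the cell type markers, edgeR called 2 genes in the 5-library comparison, both lower, where it called 2.68% of all genes tested as lower. Of the stromal list 3 genes were tested, 2 with a positive log2 fold change and 1 with a negative one. Of the Sertoli cell list 2 were tested, both negative. Cd34, of the stromal list, had a log2 fold change of -2.87 ± 0.27 (SE, adjusted p = 9.25e-06), and Clu of -1.30 ± 0.21 (SE, adjusted p = 0.00288). With 6 libraries these were -2.59 (adjusted p = 0.202) and -2.93 (adjusted p = 0.298), and edgeR called neither. Their part in the Boc and Gas1 differences was not tested.

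The rest of the pathway was read from 5 lists, in which edgeR called 0 genes in either comparison, beside 0.015% and 4.6% of all genes tested. The ligand genes themselves had few or no counts. Shh, Ihh and the release factor gene Scube1 had no count in any library. Dhh, the ligand made by Sertoli cells in the testis, had 59 counts (3.84 CPM) in control replicate 1. It had 2 counts each in A20-overexpressing replicates 1 and 2 and none in the other 3 libraries, so that in these 5 libraries it lay under the 3-count level. Disp1, the transporter that releases ligand, was the most abundant of this list, at 45.3, 43.6 and 62.7 CPM in control and 64.7, 61.1 and 67.2 CPM with A20 overexpression. Disp1 had a log2 fold change of 0.37 ± 0.18 (SE, edgeR adjusted p = 0.539) with 6 libraries and 0.25 ± 0.16 (SE, adjusted p = 0.387) with 5. Of 10 ligand and release genes 5 passed the filter, and their median log2 fold change was 0.34 with 6 libraries and 0.16 with 5. None had an unadjusted p under 0.05 in either comparison, where 10% and 21.6% of all genes tested had one.

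Of 7 further receptors and co-receptors, 5 were tested, with median log2 fold changes of 0.10 and 0.12. None had an unadjusted p under 0.05 in either comparison, where 10% and 21.6% of all genes tested had one. DESeq2 called 0 of these receptors and of the ligand and release genes in either comparison, beside 1.03% and 5.66% of all genes. Cdon, the nearest relative of Boc, was singled out after its values were seen. It was at 49.9, 61.8 and 85.2 CPM in control replicates 1, 2 and 3 and at 85.1, 69.2 and 102 CPM with A20 overexpression, and the groups overlapped. Its log2 fold change was 0.40 ± 0.24 (SE, edgeR adjusted p = 0.613) with 6 libraries and 0.19 ± 0.17 (SE, adjusted p = 0.56) with 5. Mgrn1, a ubiquitin ligase gene whose product acts on SMO and the most abundant of this list, had a log2 fold change of 0.10 ± 0.16 (SE, edgeR adjusted p = 0.873) with 6 libraries and 0.12 ± 0.15 (SE, adjusted p = 0.705) with 5.

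Of 25 regulators of SMO and GLI, 23 were tested. With 6 libraries none had an unadjusted p under 0.05 and with 5 libraries 2 had, where 10% and 21.6% of all genes tested did, at median log2 fold changes of 0.0024 and -0.03. DESeq2 called 0 of them with 6 libraries and 1 with 5, beside 1.03% and 5.66% of all genes. Prkar1a, the regulatory subunit of protein kinase A, which marks GLI proteins for processing, was the most abundant and had a log2 fold change of 0.11 ± 0.16 (SE, edgeR adjusted p = 0.86) with 6 libraries and 0.18 ± 0.14 (SE, adjusted p = 0.498) with 5. The smallest adjusted p of this list was that of Fbxl17, a ubiquitin ligase subunit that degrades SUFU, which was picked out after its values were seen. Fbxl17 was at 11.5 and 15.1 CPM in control replicates 2 and 3, at 23.3, 18 and 29.6 CPM with A20 overexpression and at 36.2 CPM in control replicate 1, above them all. The log2 fold change of Fbxl17 was 0.24 ± 0.37 (SE, edgeR adjusted p = 0.864) with 6 libraries and 0.80 ± 0.22 (SE, adjusted p = 0.0501) with 5, so that it passed in neither.

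Of 22 known GLI target genes beyond Gli1, Ptch1 and Hhip, 12 were tested, and their median log2 fold change was 0.47 with 6 libraries and 0.34 with 5. An unadjusted p under 0.05 was found for 1 and 2 of them, beside 10% and 21.6% of all genes tested, and DESeq2 called 0 and 1, beside 1.03% and 5.66%. Igfbp6, an IGF-binding protein gene and the most abundant, was at 179, 103 and 145 CPM in control and 134, 200 and 153 CPM with A20 overexpression. Its log2 fold change was 0.23 ± 0.22 (SE, edgeR adjusted p = 0.752) with 6 libraries and 0.36 ± 0.18 (SE, adjusted p = 0.261) with 5. Bcl2, the anti-apoptotic gene, had the smallest adjusted p of this list and was likewise picked out after its values were seen. It was at 3.28 and 4.99 CPM in control replicates 2 and 3, at 9.99, 6.20 and 10.4 CPM with A20 overexpression and at 8.27 CPM in control replicate 1. For Bcl2 the log2 fold change was 0.74 ± 0.38 (SE, edgeR adjusted p = 0.55) with 6 libraries and 1.07 ± 0.32 (SE, adjusted p = 0.0598) with 5. Osr2, a zinc finger gene also picked out after its values were seen, was at 265 CPM in control replicate 1 and at 0 to 0.488 CPM in the other libraries. Of the 12 targets tested, 2 were above and 4 below each other library in control replicate 1, and of all 22 in the list 6 were above and 4 below. Among all genes tested 40.7% were above and 21.7% below.

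Genes of the primary cilium, the compartment in which SMO acts, were detected throughout. All 45 of the list were tested, with median log2 fold changes of -0.08 and -0.05, and an unadjusted p under 0.05 was found for 2 with 6 libraries and 4 with 5, where 10% and 21.6% of all genes tested had one. DESeq2 called 0 of the 45 in either comparison, beside 1.03% and 5.66% of all genes. Arl3, a ciliary GTPase gene and the most abundant, had a log2 fold change of -0.10 ± 0.16 (SE, edgeR adjusted p = 0.865) with 6 libraries and -0.07 ± 0.16 (SE, adjusted p = 0.852) with 5. Control replicate 1 was above each other library for 21 of the 45 and below each for 7. Among all genes tested it was above for 40.7% and below for 21.7%.

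**Figure D4:**
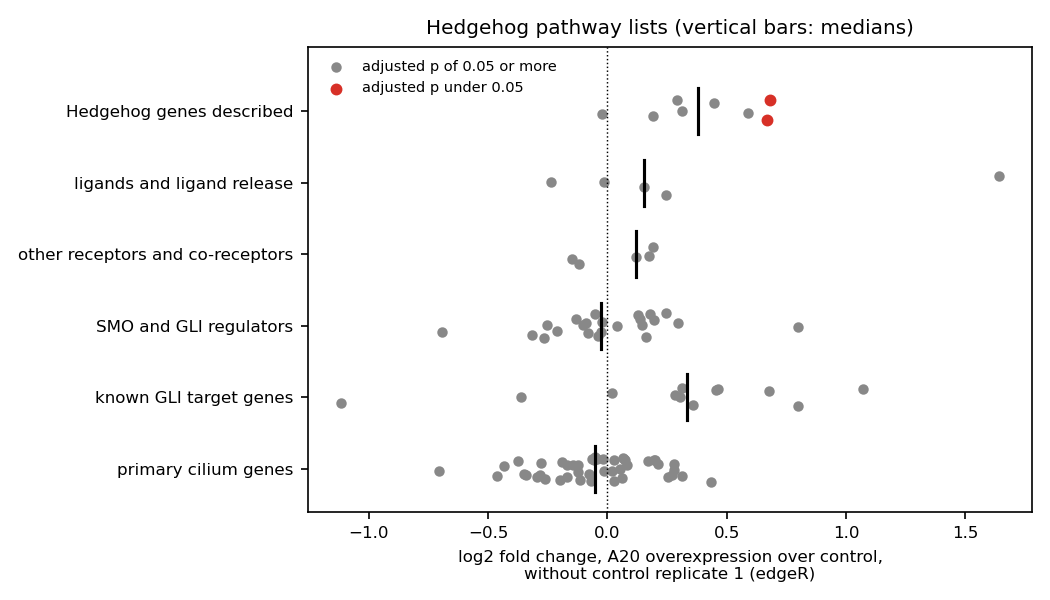
Points are the log2 fold change of A20 overexpression over control without control replicate 1 (horizontal axis) for the genes tested in each list, spread vertically for legibility, with black bars at the medians. Boc and Gas1, in red, are the points past the threshold, and the cilium list is centred at -0.05.

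Promoter sequence was at hand for 7 of the 9 genes from RefSeq (GRCm38.p6), as 250 bases before and 50 bases after the start site. The letters GACCACCCA, the consensus bound by GLI proteins, were searched on both strands and stood in none of the 7, and in 0.253% of 32851 promoters of the same length. Its core ACCACCC, which is part of that consensus, stood in 1 of the 7, Gli2, and in 4.61% of all. Ptch1 is shown as the feedback target that, like Gli1, was highest in control replicate 1. Gas1 is shown as the called member with an entry, and Gli2 for the core. The 250 bases before the start site are given 5′ to 3′ on the strand of the gene (all minus), with the core, here on the opposite strand and starting at -205 from the start site, in capitals. They lie at chr13:63565736-63565985 for Ptch1, inside the deposited bounds of the gene, at chr13:60177536-60177785 for Gas1 and at chr1:119053620-119053869 for Gli2.
Ptch1: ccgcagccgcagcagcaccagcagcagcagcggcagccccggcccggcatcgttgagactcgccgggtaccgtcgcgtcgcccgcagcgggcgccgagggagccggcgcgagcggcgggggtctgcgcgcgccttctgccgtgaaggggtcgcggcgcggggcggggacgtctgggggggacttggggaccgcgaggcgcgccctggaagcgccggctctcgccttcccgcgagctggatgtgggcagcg
Gas1: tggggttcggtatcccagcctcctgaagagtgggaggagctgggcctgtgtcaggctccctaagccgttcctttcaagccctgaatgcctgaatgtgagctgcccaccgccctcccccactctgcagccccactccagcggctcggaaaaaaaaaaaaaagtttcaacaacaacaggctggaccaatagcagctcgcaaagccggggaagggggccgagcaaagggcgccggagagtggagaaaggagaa
Gli2: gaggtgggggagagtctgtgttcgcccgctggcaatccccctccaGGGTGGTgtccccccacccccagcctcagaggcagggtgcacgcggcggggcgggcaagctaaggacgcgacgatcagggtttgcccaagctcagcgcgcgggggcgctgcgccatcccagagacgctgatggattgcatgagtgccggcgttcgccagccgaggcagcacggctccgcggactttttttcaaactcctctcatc
The Ptch1 window of 300 bases holds 47 CpG and 76.3% G and C, the Gas1 window 17 and 62.3% and the Gli2 window 28 and 67.3%, against medians of 7 and 52.7% over all promoters.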

How the data were processed

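RNA libraries of 3 control and 3 A20-overexpressing TM3 samples were compared. The authors deposited whole-number counts per gene and FPKM values for the 6 libraries. Per the submitters' processing notes the build was GRCm38 (mm10); the aligner, counter and strand setting are not given in the sources used here. The deposited FPKM equal the count over the gene length and over 1 scale per library set by the authors.

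Counts were tested with edgeR 4.0.16 (R 4.3.3): TMM factors, genes filtered by filterByExpr, a robust quasi-likelihood fit with group as its single term, and p-values adjusted over the whole table after Benjamini and Hochberg (threshold 0.05). The SE of a log2 fold change (A20 overexpression over control) is its size over the square root of F. CPM use library totals. The alternatives were RLE factors, library size alone, other filters, DESeq2 1.42.0, limma 3.58.1 (voom, voom with quality weights, trend on log2(FPKM + 1) and log2(FPKM + 0.1)), a replicate block and leaving out each library. Setting control replicate 1 beside the other libraries on FPKM was added after seeing the data. The procedure was tested on simulated data.

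The 9 genes, the lists and the fit without control replicate 1 were chosen with earlier results of these data known. From each pathway list the rule named up to 6 called genes or, where none was called, the most abundant one; others are marked as chosen after their values were seen. Of the list symbols, 1 was matched through an older name in RefSeq. Figures were drawn with matplotlib 3.10.9.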

Additional observations from a re-analysis of the deposited data

How the results depend on the processing

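With all 6 libraries edgeR called 2 genes and 0 of the Hedgehog genes. All genes called were 0 on library size alone, with limma-voom and with limma-trend on log2(FPKM + 1) with or without a filter and on log2(FPKM + 0.1), 23 without a filter on low counts, 162 with DESeq2 and 413 with limma-voom and quality weights, and 0 to 628 when 1 library was left out. Hedgehog genes called were 1 with quality weights and 0 to 2 when 1 library was left out. With quality weights Ptch1 turned to 0.20 and Gli1 to 0.44. Leaving out 1 library gave a log2 fold change of -0.49 to 0.31 for Ptch1, -2.46 to 0.59 for Gli1 and -0.030 to 0.31 for Gli3. Without control replicate 1 edgeR called 628 genes, 2 of them Hedgehog genes. All genes called were 1173 without a filter, 343 with quality weights, 0 with limma-trend on either pseudocount, 35 with limma-trend at a mean FPKM of at least 1, and 142 to 2423 when a further library was left out. Hedgehog genes called were 0 on library size alone and with the 3 FPKM settings, and 1 with a filter of 1 CPM, limma-voom or quality weights. They were 0 when an A20-overexpressing library was left out as well. Regulators called were 1 rather than 0 with RLE factors, no filter, DESeq2 or the block, and GLI targets 1 with no filter or DESeq2. Leaving out a further library gave 0 to 4 regulators, 0 to 6 targets, 0 to 3 cilium genes, 0 to 1 ligands and 0 to 1 receptors; where that leaves 1 control, it is assumed to vary like the other group. Gli3 turned to 0.016 on library size alone and 0.0056 without a filter, and ran from -0.17 to 0.12 without a further library, Sufu from -0.014 to 0.43. The GLI core was found in 1 promoter where the consensus was in 0. The cause of these shifts was not tested.

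Replicate numbers are shared by the groups, and the titles do not say whether they pair the samples. Deviations of same-numbered libraries from their group means correlated at 0.048, 0.13 and -0.055 over 13350 genes. For different-numbered libraries the values ran from -0.196 to 0.176. With so few libraries per group, these values cannot decide whether the samples are paired. With the replicate block edgeR called 2 genes and 0 Hedgehog genes with 6 libraries, and 797 genes and 2 Hedgehog genes with 5. The log2 ratios of control replicate 1 to the other libraries kept their direction on FPKM, at 3.50 for Gli1 and 1.20 for Ptch1. Depth limits Hhip and Dhh, under the floor of 3 counts in at least 5 libraries, and Gli1, with 15 to 37 counts in 5.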
